A study of Mus musculus with 5 samples.

Results

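Nuclear receptors are transcription factors that share a DNA-binding domain and, in most members, a pocket for a small fat-soluble ligand such as a steroid, a retinoid, vitamin D, a bile acid or a thyroid hormone. The genes described here are 47 members of this superfamily, chosen by name from a table of 24417 genes with a symbol, and all 47 had a row in it. They were read in RNA-seq counts from cells sorted by Foxp3 reporters out of the lamina propria of the mouse colon, the tissue beneath the gut epithelium. Regulatory T (Treg) cells, a kind of CD4 T cell, depend on the transcription factor Foxp3. All mice carried a Foxp3DTR-GFP allele, which marks cells with GFP and a diphtheria toxin receptor, and a loxp-Thy1.1-STOP-loxp-GFP allele, which marks cells with Thy1.1. Foxp3 reporter-null cells, positive for Thy1.1, gave 3 libraries, named reporter-null 1, 2 and 3 below. Treg cells, positive for DTR-GFP, gave 2 libraries, named Treg 1 and 2. The labels state no age, sex, hour of collection or number of animals, nor whether each library is from a different mouse. The p-values below therefore cover only how these libraries vary, which may be technical variation.

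Many nuclear receptors bind DNA as a pair with a retinoid X receptor, and without ligand several of them hold corepressors at their target genes. In the gut, T cells meet retinoic acid made by dendritic cells, vitamin D, oxidised cholesterol, bile acids and corticosteroids, so receptors of this family link CD4 T cells to diet and hormones. The orphan receptors of the NR4A group are switched on within a short time of T cell receptor signalling, and the REV-ERB repressors are part of the circadian clock.

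The total count ran from 19011118 to 22395169 in reporter-null libraries and was 17670420 and 22245610 in Treg libraries. Foxp3 counts followed the labels, at 75.7, 80.6 and 81.2 CPM, a gene's count relative to the scaled total of its library, in reporter-null 1, 2 and 3, against 764 and 769.5 CPM in Treg 1 and 2. Thy1, part of the reporter, had 269.8, 269 and 300.3 CPM in reporter-null against 18.8 and 21.4 CPM in Treg libraries. A list of 8 CD4 T cell markers summed to 6640 to 7080 CPM in reporter-null and 6580 and 6740 CPM in Treg libraries. Of the 8, Cd4 was 1.98-fold higher in reporter-null cells (adjusted p = 0.00796), at 1554, 1346 and 1270.0 CPM in reporter-null against 682 and 719 CPM in Treg libraries. Cd2 was lower (log2 fold change -1.37, adjusted p = 0.00186), and the other 6 were not called. A pair of libraries stood apart from the rest: 15 colon epithelium markers summed to 1730 CPM in reporter-null 2, against 41.2 and 44.6 CPM in the other reporter-null libraries, and to 384 CPM in Treg 1, against 53.3 CPM in Treg 2. The same libraries had less heat shock RNA (10 genes, 11000 CPM in reporter-null 2 and 8620 CPM in Treg 1, against 35900 to 44200 CPM in the others). Plasma cell markers summed to 650 to 1300 CPM in reporter-null and 1820 and 724 CPM in Treg libraries, and macrophage and monocyte markers to 25.1 to 119 CPM and 61.7 and 20.5 CPM, with 0 genes called in either list. Of the tested markers of other cells, 1 of 5 B cell genes was lower (Cd79b, 0.36-fold). Of 2 mast cell and granulocyte genes, Kit was higher (3.69-fold), and Kit is also among the innate lymphoid markers below. Of 7 stromal and endothelial genes, Pdgfrb was higher (36.3-fold, 154, 215 and 139 counts in reporter-null against 3 and 6 in Treg libraries). Of 6 CD8 T and NK cell genes, Klrk1 was higher (14.4-fold) and Prf1 lower (0.209-fold). For dendritic cells and enteric glia 0 were called. Over all tested genes the share called was 8.79%. Levels below are CPM after TMM scaling of library sizes. Log2 fold changes are reporter-null minus Treg with their standard error (SE), and adjusted p-values come from the edgeR quasi-likelihood test over all 14164 genes that passed a filter on low counts, adjusted by Benjamini-Hochberg, and a gene was called at an adjusted p under 0.05.

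Vdr, Nr1d1 and Nr1d2 were the members that passed the test, all higher in reporter-null cells, and Vdr differed most. Of the 47 members, 34 passed the filter on low counts. Of these 3 were higher, 0 were lower and 31 did not pass, so 8.82% were called. Over all tested genes 8.79% were called (4.07% higher and 4.72% lower), so the share of members called was near the background. By an unadjusted p under 0.05 there were 8 members. The median log2 fold change was 0.20 over the 34 tested members and 0.018 over all tested genes. Leaving libraries out changed the share of all genes called as well as the number of members called. With Treg 1 or Treg 2 left out, 2 members were called each (5.13% and 5.26% of those tested), against 2.27% and 2.70% of all tested genes. With reporter-null 1 or 3 left out, 3 and 5 members were called (8.82% and 14.7%), against 3.32% and 8.09% of all tested genes. With reporter-null 2 left out, 7 members were called (21.9%), and so were 2035 of all 13589 tested genes. With Treg 1 and reporter-null 2 both left out, which leaves a single Treg library, 8 members (23.5%) and 15.2% of all tested genes were called. Those 8 include Nr1h3, with 0 counts in the Treg library left, and Rxrg, with 26 counts there and 1 and 3 in the reporter-null libraries left. Vdr and Nr1d1 were called in each of these fits.

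**Figure D1:**
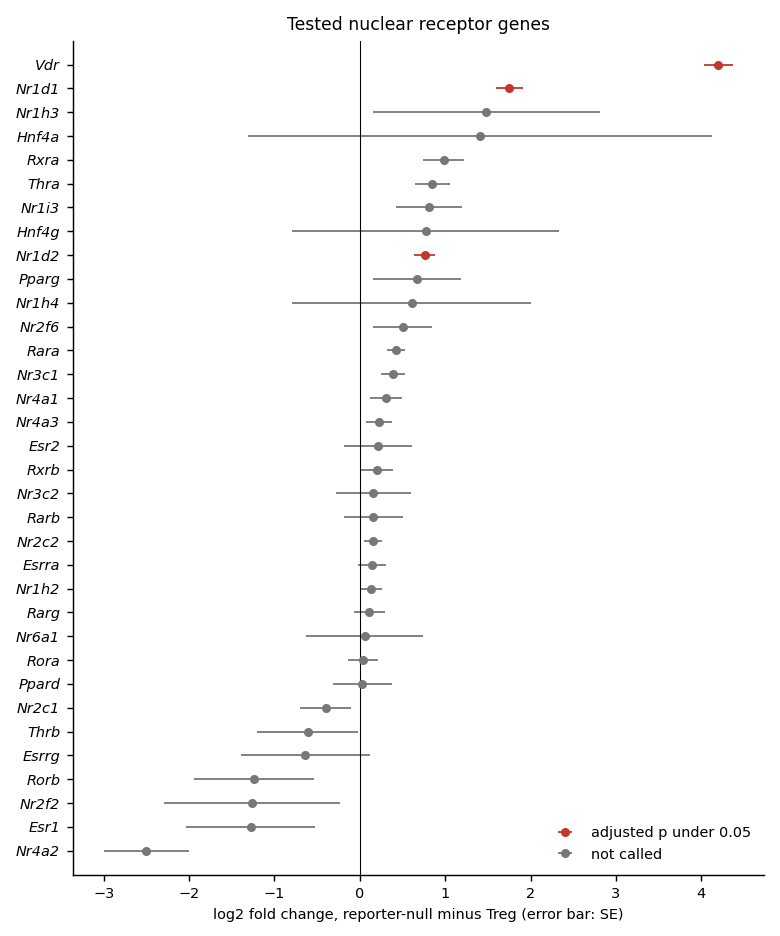
The log2 fold change (reporter-null minus Treg, horizontal axis) of each of the 34 tested members, with its SE as the error bar. Vdr at 4.20 stands to the right of all others, Nr1d1 and Nr1d2 are the other called members, and Nr4a2 at -2.50 lies farthest to the left without passing the test.

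The starts of 4 receptor genes are shown because they carry the called differences and the largest decrease. The sequences are from RefSeq on GRCm38.p6, where 43 of the 47 members had an entry, and give the 250 bases before the annotated start, 5′ to 3′ on the gene's strand. All 4 genes lie on the minus strand, Vdr at chr15:97908297-97908546, Nr1d1 at chr11:98775378-98775627, Nr1d2 at chr14:18239107-18239356 and Nr4a2 at chr2:57124004-57124253. Capitals mark matches on either strand to the letters searched.
Vdr: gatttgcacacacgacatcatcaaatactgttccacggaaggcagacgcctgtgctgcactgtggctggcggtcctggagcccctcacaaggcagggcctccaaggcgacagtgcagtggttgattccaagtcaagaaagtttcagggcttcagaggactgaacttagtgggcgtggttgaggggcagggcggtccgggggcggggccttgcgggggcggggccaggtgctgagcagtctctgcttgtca
Nr1d1: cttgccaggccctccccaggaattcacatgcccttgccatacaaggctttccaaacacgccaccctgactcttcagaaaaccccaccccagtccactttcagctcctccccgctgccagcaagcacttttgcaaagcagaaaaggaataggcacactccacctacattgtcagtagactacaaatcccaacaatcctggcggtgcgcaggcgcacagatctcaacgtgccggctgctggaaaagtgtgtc
Nr1d2: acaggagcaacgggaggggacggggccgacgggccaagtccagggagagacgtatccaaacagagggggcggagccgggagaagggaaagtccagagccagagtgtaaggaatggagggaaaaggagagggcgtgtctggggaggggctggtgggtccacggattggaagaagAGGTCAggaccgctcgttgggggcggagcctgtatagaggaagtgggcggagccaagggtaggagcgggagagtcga
Nr4a2: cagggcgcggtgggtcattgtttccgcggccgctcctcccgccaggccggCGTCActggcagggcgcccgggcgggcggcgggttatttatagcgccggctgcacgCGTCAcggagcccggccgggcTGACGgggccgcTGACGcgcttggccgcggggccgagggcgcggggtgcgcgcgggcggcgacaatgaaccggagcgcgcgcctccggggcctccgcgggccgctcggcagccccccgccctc

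The letters searched were CACGTG (the E-box bound by the clock activators), TTATGTAA (a D-box), TAGGTCA (a core of the element shared by ROR and REV-ERB receptors), AGGTCA (the nuclear receptor half-site, which lies inside TAGGTCA), TGACGTCA (the cyclic AMP response element), TGACG (its half-site) and TGTTTAC (a forkhead motif). In Nr4a2 TGACG occurred 4 times, on both strands, at 200 to 107 bases before the start. Of 32851 windows of this length in the RefSeq table, 17.8% held TGACG at least once. Nr1d2 held a single AGGTCA, at 77 to 72 bases before the start, where 14.0% of windows hold it. None of the letters was found in the windows of Vdr and Nr1d1, which says only that these letters are not in these windows. The shares of windows with the other letters were 6.02% for CACGTG, 0.819% for TTATGTAA, 2.23% for TAGGTCA, 1.55% for TGACGTCA and 3.17% for TGTTTAC.

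Vdr encodes the receptor for the active form of vitamin D, which also binds the bile acid lithocholic acid. It had 271, 255 and 229 CPM in reporter-null 1, 2 and 3, against 15.2 and 12.2 CPM in Treg 1 and 2. The groups lay far apart, with every reporter-null library above both Treg libraries. The means were 251.5 ± 21.2 CPM in reporter-null cells (SD, n = 3) and 13.7 ± 2.12 CPM in Treg cells (SD, n = 2), an 18.4-fold difference (log2 fold change 4.20, SE 0.170, adjusted p = 0.000112 by edgeR). In raw reads this was 5003, 5316 and 5144 counts in the reporter-null libraries and 280 and 264 counts in the Treg libraries. Over 17 alternatives the log2 fold change of Vdr ran from 4.05 to 4.37 and the adjusted p from 2.48e-146 to 0.0385, and the gene was called in all 17. Its place within the family differed between the groups as well. Divided by the length of its exons in GENCODE M21, its level ranked 4, 5 and 4 among the 47 members in the reporter-null libraries and 16 and 18 in the Treg libraries.

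In these bulk libraries, more cells that express Vdr and more Vdr RNA per cell cannot be told apart. Markers of gamma-delta T and innate lymphoid cells moved with the groups. Of 8 listed markers 5 were used, 4 of the 5 were higher in reporter-null cells, and their levels summed to 636 to 768 CPM in reporter-null against 48.9 and 60.4 CPM in Treg libraries. The largest share came from 5830411N06Rik, at 551, 584 and 381 CPM in reporter-null libraries and 7.16 and 6.89 CPM in Treg libraries. Trdc, Tcrg-C1 and Tcrg-C2 had no row under these symbols, and no marker of the 5 was at 0 in any library. The part of such cells in the differences of Vdr and of the other receptors was not tested.

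Transcripts of the vitamin D system beyond the receptor were at low levels or did not pass the test. Of 9 genes listed for vitamin D supply and response, 6 were tested and 0 were called, with a median log2 fold change of 0.28 against 0.018 over all tested genes. Cyp24a1, the enzyme that breaks down active vitamin D and a classical target of Vdr, had 1 count in each reporter-null library and 0 counts in both Treg libraries. Cyp27b1, which makes the active form, had 1 count in reporter-null 2 and 0 in the others. The calcium pump gene Atp2b1 had the highest level of the list, at 301, 339 and 349.5 CPM in reporter-null against 295 and 283 CPM in Treg libraries (log2 fold change 0.19, SE 0.117, adjusted p = 0.405 by edgeR). Over all gene lists used here other than cell type markers, 141 genes were tested and 20 (14.2%) were called. The share over all tested genes was 8.79%. The lists were chosen with earlier results of these data known, so setting these shares side by side is no test of the lists. At an adjusted p under 0.01 the shares were 3.55% of list genes and 3.45% of all tested genes.

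**Figure D2:**
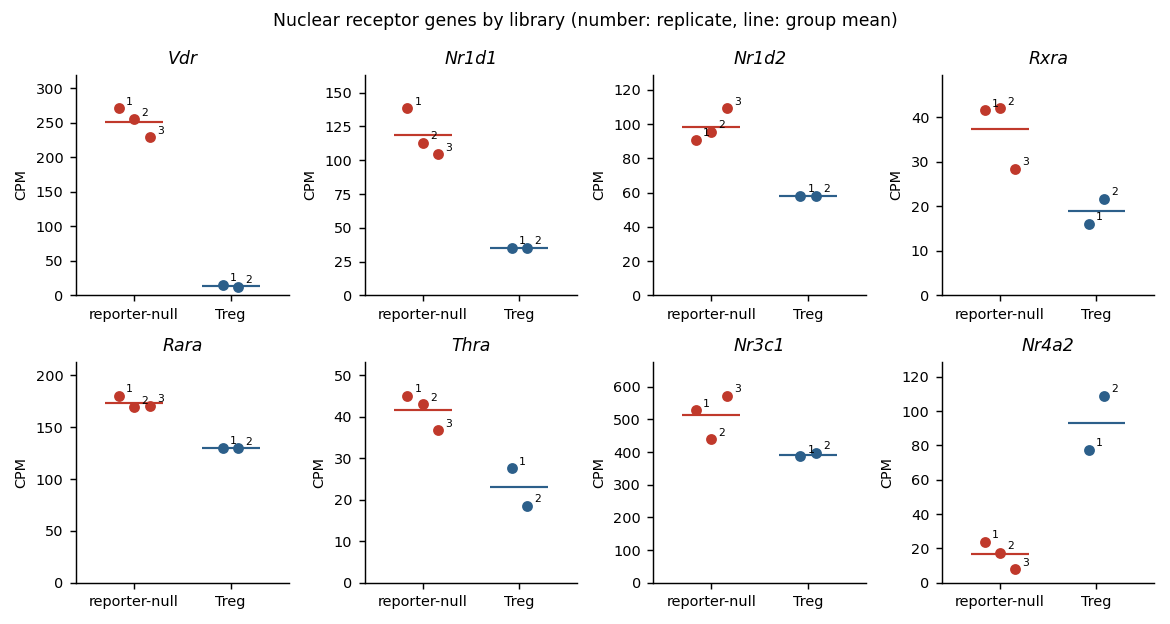
Levels in CPM (vertical axes, from 0) of 8 receptor genes in each library, reporter-null to the left of Treg, with points numbered by replicate and lines at the group means. For Vdr the reporter-null libraries sit between 229 and 271 CPM and both Treg libraries below 16 CPM, while for Nr4a2 the reporter-null libraries sit between 7.92 and 24.0 CPM, below both Treg libraries.

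The REV-ERB genes Nr1d1 and Nr1d2, which encode heme-binding repressors of the clock, rose in reporter-null cells. Nr1d1 had 138.5, 113 and 104 CPM in reporter-null 1, 2 and 3, against 35.1 and 35.3 CPM in Treg 1 and 2. All reporter-null libraries were above the Treg libraries, which were nearly equal (log2 fold change 1.75, SE 0.156, adjusted p = 0.0015 by edgeR, range over 17 alternatives 4.72e-22 to 0.055). Nr1d2 had 91.0, 95.5 and 109 CPM in reporter-null libraries and 58.2 CPM in each Treg library, again without overlap (log2 fold change 0.76, SE 0.125, adjusted p = 0.0138). Its call was lost without Treg 1 (0.126) or Treg 2 (0.105), and over 17 alternatives p ran from 3.42e-07 to 0.126. Rora, whose product activates through the same element that the REV-ERB proteins repress, had 512, 678 and 470.5 CPM in reporter-null against 542 and 536 CPM in Treg libraries. The Rora groups overlapped (log2 fold change 0.039, SE 0.174, adjusted p = 0.93). Rorb stayed under 1.5 CPM in all libraries.

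Other clock genes moved in both directions. Of 17 listed clock genes, all tested, 3 were higher, 1 was lower and 13 were not called, where 8.79% of all tested genes were called. The median log2 fold change was 0.098, against 0.018 over all tested genes. Hlf, a PAR bZIP activator that binds D-boxes, had 177, 215 and 208 CPM in reporter-null against 24.9 and 24.4 CPM in Treg libraries (log2 fold change 3.02, SE 0.142, adjusted p = 0.000178). Npas2, a partner of the clock activator Arntl, had 13.6, 18.5 and 14.5 CPM in reporter-null against 3.96 and 5.50 CPM in Treg libraries (1.71, adjusted p = 0.0111). The related repressors Bhlhe40 and Bhlhe41 went opposite ways. Bhlhe40 was 2.83-fold higher in reporter-null cells (adjusted p = 0.033), while Bhlhe41 was lower (log2 fold change -3.16, adjusted p = 0.00276). Bhlhe41 had 1.35, 2.54 and 2.80 CPM in reporter-null against 20.3 and 19.9 CPM in Treg libraries. The direct REV-ERB target Arntl had 152, 143 and 131 CPM in reporter-null and 89.4 and 115.5 CPM in Treg libraries, higher in each reporter-null library but not called (0.47, SE 0.147, adjusted p = 0.112). Dbp and the period genes Per1, Per2 and Per3 were not called. Per3 came close, at 11.8, 12.85 and 11.4 CPM in reporter-null against 6.35 and 6.79 CPM in Treg libraries (0.87, adjusted p = 0.0536 by edgeR). The groups of Per3 and Dbp did not overlap, while those of Per1 and Per2 did. Npas2 and Bhlhe40 lost their calls without Treg 1 (adjusted p 0.0954 and 0.232), Treg 2 (0.0508 and 0.187) or reporter-null 1 (0.0502 and 0.104), with ranges over 17 alternatives of 6.47e-07 to 0.101 and 1.43e-06 to 0.232. The labels give no hour of collection, and its part was not tested.

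**Figure D3:**
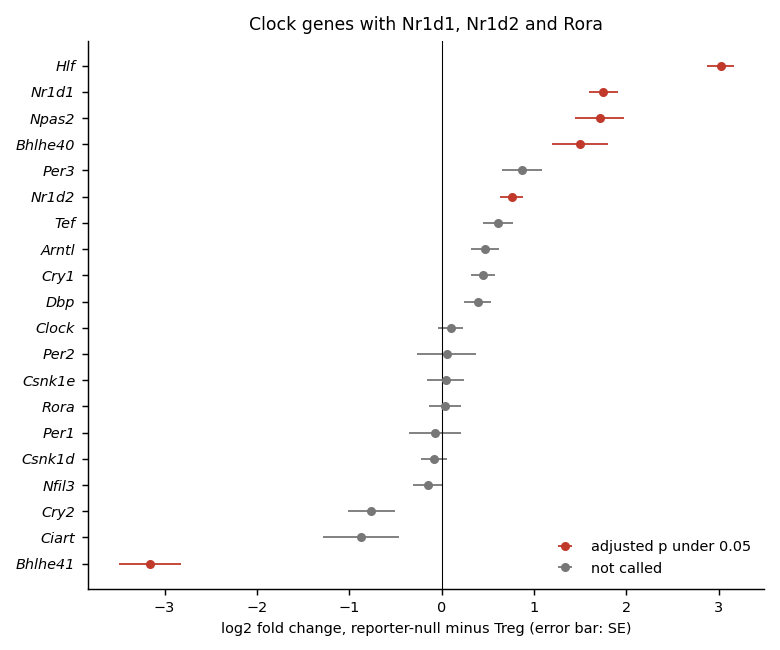
Log2 fold change (reporter-null minus Treg, horizontal axis) with SE of the 17 listed clock genes together with Nr1d1, Nr1d2 and Rora. Hlf at 3.02 and Bhlhe41 at -3.16 lie at the ends, and Clock, Per2 and Rora lie near 0.

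The NR4A receptors are immediate-early orphan receptors that report T cell receptor signalling and, in mice, support Treg development. Nr4a2 had 24.0, 17.6 and 7.92 CPM in reporter-null 1, 2 and 3, against 77.6 and 109 CPM in Treg 1 and 2. Every reporter-null library was below both Treg libraries, and reporter-null 3 was the lowest. The log2 fold change was -2.50 (SE 0.494, adjusted p = 0.055 by edgeR), so Nr4a2 missed the threshold. It passed without reporter-null 3 (0.00989) and by limma-voom (0.00821) and DESeq2 (2.51e-07), and over 17 alternatives p ran from 2.51e-07 to 0.559. Nr4a1, the most abundant member per exon length in every library, had 2793, 2465 and 2106 CPM in reporter-null against 1719 and 2245 CPM in Treg libraries. Nr4a3 had 91.8, 110.2 and 87.0 CPM in reporter-null against 90.8 and 74.3 CPM in Treg libraries. The groups of both genes overlapped (log2 fold change 0.31, SE 0.187, adjusted p = 0.4 for Nr4a1, and 0.22, SE 0.153, adjusted p = 0.464 for Nr4a3).

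Immediate-early genes other than the NR4A group were in part higher. Of 15 listed, all tested, 3 were higher and 0 lower, where 8.79% of all tested genes were called (4.07% higher and 4.72% lower). The median log2 fold change was 0.56, against 0.018 over all tested genes. The 3 genes were Ier3 (1.91, SE 0.323, adjusted p = 0.0156), the AP-1 subunit Fosb (1.06, SE 0.188, adjusted p = 0.0184) and Egr3 (1.46, SE 0.319, adjusted p = 0.0374). Fosb had 779, 914 and 633 CPM in reporter-null against 337 and 409 CPM in Treg libraries. All 3 lost their calls without Treg 1 (adjusted p 0.14 to 0.242), Treg 2 (0.068 to 0.157) or reporter-null 1 (0.0731 to 0.138), and Egr3 also without reporter-null 3 (0.083). Over 17 alternatives the adjusted p ran from 4.07e-10 to 0.193 for Ier3, 1.14e-06 to 0.179 for Fosb and 3.96e-05 to 0.242 for Egr3. Of 10 heat shock and dissociation genes 1 was called, Socs3, an inhibitor of cytokine signalling, which was lower (-1.32, SE 0.120, adjusted p = 0.00152).

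Retinoic acid acts through Rara, Rarb and Rarg, paired with Rxra, Rxrb or Rxrg. None of these was called, and Rara and Rxra came closest. Rara had 181, 169 and 171 CPM in reporter-null libraries, against a Treg mean of 129.9 ± 0.264 CPM (SD, n = 2) with 129.7 CPM in Treg 2, without overlap (log2 fold change 0.42, SE 0.104, adjusted p = 0.0565 by edgeR, range 7.26e-05 to 0.294). Rxra had 41.6, 42.1 and 28.4 CPM in reporter-null against 16.1 and 21.8 CPM in Treg libraries, also without overlap. Its log2 fold change was 0.98 (SE 0.236, adjusted p = 0.0506), and it passed without reporter-null 2 (0.0257) or reporter-null 3 (0.0248), with p from 0.00344 to 0.308 over the alternatives. Rxrb, the retinoid X receptor gene with the higher level per exon length in both groups, had 125, 129.7 and 86.9 CPM in reporter-null and 100.1 and 97.8 CPM in Treg libraries (0.20, adjusted p = 0.605). Rarg lay between 18.7 and 25.1 CPM and Rarb between 4.30 and 7.16 CPM, both with overlapping groups. Rxrg failed the filter and had 26 counts in Treg 2 and 0 to 3 in the others.

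Among genes that supply or answer retinoic acid 1 was called, where 8.79% of all tested genes were called. Of 19 listed, 11 were tested, 0 were higher and 1 was lower, with a median log2 fold change of -0.21. The lower gene was Stra6, a receptor that takes up retinol from its carrier protein, at 0.541, 0.432 and 0.0445 CPM in reporter-null against 4.23 and 7.12 CPM in Treg libraries (-4.05, SE 0.869, adjusted p = 0.0355). Its call was lost without Treg 1 (0.15), Treg 2 (0.194) or reporter-null 1 (0.0985), with p from 7.56e-14 to 0.194 over the alternatives.

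Thyroid hormone receptor alpha, encoded by Thra, had 45.2, 43.0 and 36.7 CPM in reporter-null against 27.6 and 18.5 CPM in Treg libraries. The groups did not overlap, but the test was missed (log2 fold change 0.85, SE 0.205, adjusted p = 0.051 by edgeR). Thra passed without reporter-null 2 (0.0284), with p from 1.62e-05 to 0.212 over the alternatives. In GENCODE M21 the exons of Thra and Nr1d1 overlap on opposite strands over 263 bases, 8.33% of those of Thra and 9.67% of those of Nr1d1, and no label states whether the counts used strand. If they did not, reads from that stretch cannot be told apart between these genes. Thrb was at 0.704 to 2.05 CPM in reporter-null and 1.99 and 2.28 CPM in Treg libraries. Of 9 thyroid hormone genes 4 were tested and 1 was higher, where 8.79% of all tested genes were called. The gene was the Krüppel-like factor Klf9, which also responds to glucocorticoids.

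Among steroid receptors only the glucocorticoid receptor gene Nr3c1 had a mean above 10 CPM. It had 527.5, 439 and 573 CPM in reporter-null against 387 and 397 CPM in Treg libraries, without overlap (log2 fold change 0.39, SE 0.143, adjusted p = 0.165 by edgeR). It passed without reporter-null 2 (0.0379) and by DESeq2 (0.0372), with p from 0.0372 to 0.515 over the alternatives. Nr3c2, the mineralocorticoid receptor gene, lay between 2.91 and 5.80 CPM, Esr2 between 2.65 and 3.69 CPM and Esr1 between 0.432 and 2.82 CPM, each with overlapping groups. The progesterone receptor gene Pgr had 4 counts in reporter-null 1, 1 in reporter-null 2 and 0 elsewhere.

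Of 14 genes listed as glucocorticoid targets and co-chaperones, all tested, 3 were higher and 0 lower, where 8.79% of all tested genes were called. The median log2 fold change was 0.20, against 0.018 over all tested genes. The 11 not called included Zfp36 (0.86), Dusp1 (0.64), Tsc22d3 (0.024) and Sgk1 (-0.40). Fkbp5, a co-chaperone that glucocorticoids induce, had 193, 193 and 152 CPM in reporter-null against 98.6 and 95.2 CPM in Treg libraries (0.89, SE 0.144, adjusted p = 0.013). Nfkbia, an inhibitor of NF-kappaB, rose by 0.71 (adjusted p = 0.0265) and Klf9 by 0.72 (adjusted p = 0.0316). Of 10 steroid enzymes 7 were tested and 1 was lower. That was Hsd11b1, which regenerates active corticosteroid inside cells, at 50.0, 44.0 and 42.8 CPM in reporter-null against 90.7 and 93.1 CPM in Treg libraries (-1.01, SE 0.117, adjusted p = 0.00387). Fkbp5, Nfkbia and Klf9 lost their calls without Treg 1 (adjusted p 0.124, 0.208 and 0.159), Treg 2 (0.118, 0.164 and 0.179) or reporter-null 1 (0.0716, 0.117 and 0.0985), and Klf9 also without reporter-null 3 (0.0588). Over 17 alternatives the adjusted p ran from 6.24e-07 to 0.124 for Fkbp5, 7.62e-10 to 0.208 for Nfkbia and 0.000715 to 0.191 for Klf9.

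None of the LXR, PPAR, oestrogen-related and xenobiotic receptor genes was called. Nr1h2, which encodes LXR-beta, a sensor of oxidised cholesterol, had 242, 237.5 and 196 CPM in reporter-null against 199 and 212 CPM in Treg libraries (log2 fold change 0.13, SE 0.132, adjusted p = 0.642). Its paralogue Nr1h3, LXR-alpha, had 17, 29 and 19 counts in reporter-null and 14 and 0 counts in Treg libraries. Ppard lay between 6.35 and 13.0 CPM and Pparg between 3.79 and 12.6 CPM. Ppara, with 1 to 3 counts in 4 libraries and 19 in reporter-null 2, failed the filter. Esrra, a regulator of mitochondrial genes, had 37.6, 42.8 and 34.0 CPM in reporter-null against 38.8 and 30.6 CPM in Treg libraries (0.14, SE 0.166, adjusted p = 0.712). Esrrg lay between 0.325 and 1.63 CPM and Esrrb had 0 to 12 counts. The xenobiotic receptor gene Nr1i3 had 5.90, 5.32 and 5.16 CPM in reporter-null against 2.22 and 3.97 CPM in Treg libraries. Its groups did not overlap and it was not called (0.81, SE 0.381, adjusted p = 0.272), and in GENCODE M21 66.1% of its exon bases overlap Tomm40l on the opposite strand.

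In each list of targets of these receptors 1 gene was called, where 8.79% of all tested genes were called. Of 14 listed LXR targets 11 were tested, 0 were higher and 1 was lower, with a median log2 fold change of 0.34. Abca1, which exports cholesterol, had 0.541, 2.11 and 1.33 CPM in reporter-null against 5.48 and 12.4 CPM in Treg libraries (-2.74, SE 0.627, adjusted p = 0.0438). Of 16 PPAR targets, all tested, 1 was higher and 0 lower, with a median of 0.21. The gene was Plin2, which coats lipid droplets, at 178, 176 and 151 CPM in reporter-null against 78.2 and 109.8 CPM in Treg libraries (0.84, SE 0.173, adjusted p = 0.0311). Of 14 bile acid and xenobiotic genes 7 were tested, 0 were higher and 1 was lower, with a median of -0.56. Abcb1a, a drug efflux pump that protects T cells from bile acids in the mouse ileum, had 110.4, 110.6 and 137 CPM in reporter-null against 248.5 and 227.5 CPM in Treg libraries (0.501-fold, adjusted p = 0.00676). Abca1, Plin2 and Abcb1a lost their calls without Treg 1 (adjusted p 0.108, 0.191 and 0.0835) or Treg 2 (0.269, 0.0509 and 0.056). The log2 fold change of Abca1 was -2.03 without Treg 2. Abca1 and Plin2 lost theirs without reporter-null 1 (0.111 and 0.127), and Abca1 without reporter-null 3 (0.121). Over 17 alternatives the adjusted p ran from 7.65e-17 to 0.269 for Abca1, 0.000153 to 0.191 for Plin2 and 4.95e-10 to 0.0835 for Abcb1a.

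Hnf4a, Hnf4g, Nr1h4, Pparg, Nr1i2 and Nr5a2, grouped after their values were seen, had their highest level in each group in the libraries with the most epithelial marker RNA, reporter-null 2 and Treg 1. Hnf4a, a master regulator of enterocytes, had 0.271, 29.9 and 0.222 CPM in reporter-null 1, 2 and 3 and 6.89 and 0.739 CPM in Treg 1 and 2. Reporter-null 2 and Treg 1 were also the highest of their groups in Hnf4g (1.68 and 0.651 CPM), in Nr1h4, the bile acid receptor FXR (7.34 and 3.04 CPM), and in Pparg (12.6 and 5.97 CPM). They were the highest in Nr1i2, the receptor PXR (19 and 6 counts), and in Nr5a2 (20 and 6 counts), both of which failed the filter. Not every member known from gut or liver followed this order. Nr1i3 was lower in Treg 1 than in Treg 2 and not highest in reporter-null 2, Ppara had 1 count in Treg 1 and 3 in Treg 2, and Pparg in Treg 1 was below its 6.60 CPM in reporter-null 1. None of these members was called. The log2 fold change of Hnf4a was 1.41 (SE 2.72, adjusted p = 0.832) with all libraries, and -3.94 without reporter-null 2 (adjusted p = 0.0476, range 0.0476 to 0.983). In that fit Treg 1 kept its epithelial marker RNA. With both libraries left out, which leaves a single Treg library, the value was -1.56. All 15 epithelial markers were tested and 0 were called, Krt8, Krt19, Car1, Lgals4 and Epcam were the most abundant, and 0 were at 0 in reporter-null 2 and in Treg 1. Their part in the levels of these receptors was not tested.

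**Figure D4:**
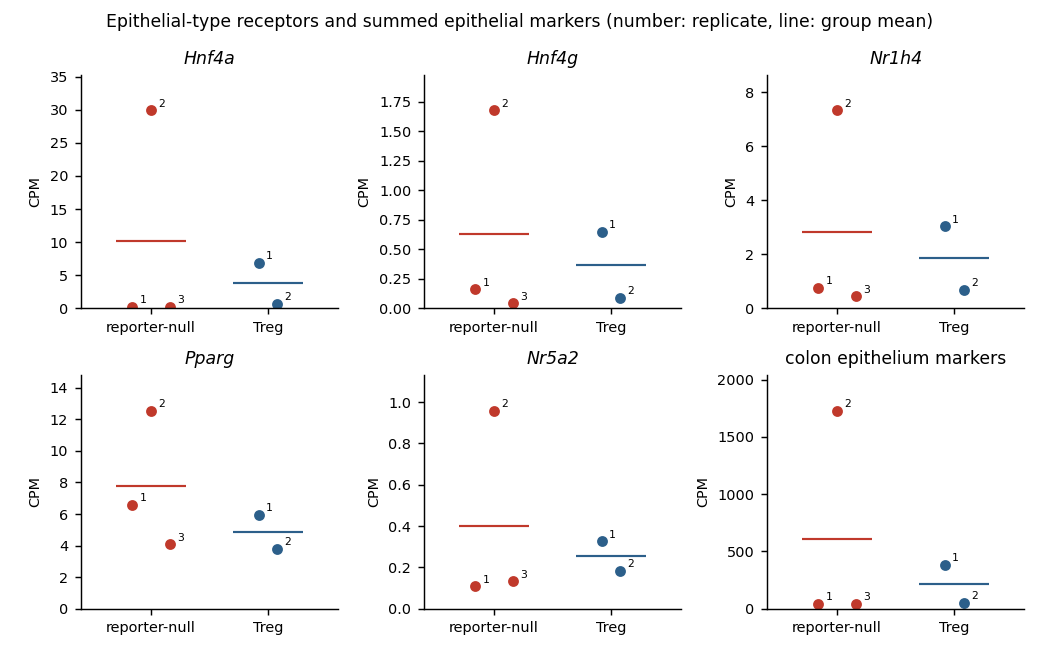
Levels in CPM (vertical axes, from 0) of 5 receptor genes and the sum of 15 colon epithelium markers in each library, reporter-null to the left of Treg, points numbered by replicate and lines at the group means. In every panel reporter-null 2 and Treg 1 are the highest of their groups, with a marker sum of 1730 and 384 CPM.

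The remaining members are orphan receptors without a known hormone. Nr2f6, which in mice restrains cytokine genes in T cells, had 56.4, 71.9 and 37.5 CPM in reporter-null against 48.9 and 29.2 CPM in Treg libraries (log2 fold change 0.50, SE 0.351, adjusted p = 0.488 by edgeR). The groups overlapped with the libraries of most epithelial RNA highest in each. Without both of them the log2 fold change was 0.69. That fit was chosen after seeing the data and leaves a single Treg library, so it shows no scatter among Treg libraries. In GENCODE M21 41.2% of its exon bases overlap Ocel1. Nr2c2, the testicular receptor TR4, had 73.7, 75.7 and 80.0 CPM in reporter-null against 69.9 and 67.7 CPM in Treg libraries. Its groups did not overlap, but the difference was small (0.15, SE 0.107, adjusted p = 0.479), and 43.5% of its exon bases overlap Mrps25. Nr2c1 lay between 7.05 and 12.8 CPM, Nr6a1 between 2.71 and 10.9 CPM and Nr2f2 between 0.222 and 2.55 CPM, each with overlapping groups. Of the exon bases of Rarb 52.9% overlap Top2b on the opposite strand.

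Members that failed the filter had at most 26 counts in a library. Nr2f1 had 3 counts in Treg 1 and 0 elsewhere, while Nr2e1, Nr2e3 and Nr1h5 had 0 to 6 counts per library. Nr0b1, Nr0b2 and Nr5a1, of which the first pair encode receptors that lack a DNA-binding domain, had 0 counts in all libraries. A count of 0 over all libraries allows a level of up to 0.0294 CPM, by a limit of 3 counts that covers counting error only. Across the 34 tested members, 12 (35.3%) had groups that did not overlap, 10 above and 2 below, where 40.8% of all tested genes did so.

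**Figure D5:**
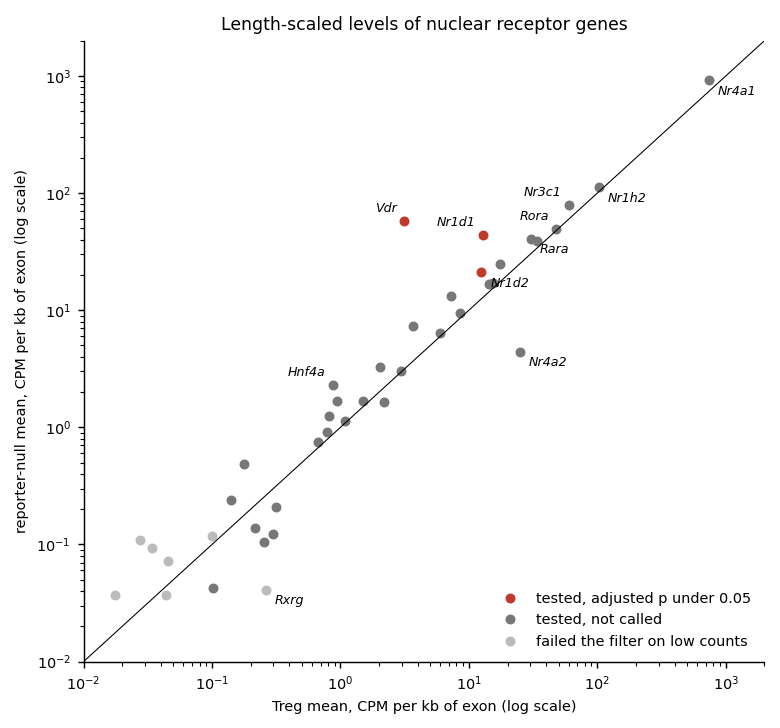
Mean level of each member detected in both groups, in CPM per kilobase of exon on log scales, reporter-null on the vertical and Treg on the horizontal axis, with the line of equal level. Nr4a1 is highest in both groups at 916 and 740 CPM per kilobase, Vdr lies above the line at 57.6 and 3.14, and Nr4a2 below it at 4.41 and 24.9.

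Scaled by exon length, the top of the order was the same in both groups, while Vdr, Nr1d1 and Nr4a2 held different places (4, 6 and 17 in reporter-null cells, 17, 11 and 7 in Treg cells). Nr4a1, Nr1h2 and Nr3c1 led in this order in all libraries, at 916, 112 and 78.4 CPM per kilobase in reporter-null and 740.0, 103 and 60.0 CPM per kilobase in Treg cells. Vdr (57.6), Rora (49.2), Nr1d1 (43.6), Rara (40.6) and Rxrb (39.3) followed in reporter-null cells, and their order changed between the reporter-null libraries. In Treg cells Rora (47.9), Rxrb (34.2) and Rara (30.3) followed in both libraries. Nr4a2 (24.9) and Nr2f6 (17.6) came next by their means, but Nr2f6 ranked above Nr4a2 in Treg 1 and below it in Treg 2. These lengths come from GENCODE M21, and no label names the annotation behind the counts.

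Coregulators carry the effect of the receptors, and 4 of those listed were called, where 8.79% of all tested genes were called. Of 16 coactivators, all tested, 1 was higher and 1 lower, with a median log2 fold change of 0.092. Pprc1, a coactivator of the PGC-1 family, rose by 0.74 (SE 0.174, adjusted p = 0.0469) and Ncoa7 fell by 0.62 (SE 0.138, adjusted p = 0.0407) on the log2 scale. Of 10 corepressors 9 were tested, 2 were higher and 0 lower, with a median of 0.32. Ncor1, the main corepressor of unliganded receptors, had 506, 517 and 565 CPM in reporter-null against 349.8 and 362 CPM in Treg libraries (0.57, SE 0.113, adjusted p = 0.027). Tbl1x, a subunit of the same complex, had 109.5, 94.8 and 102 CPM in reporter-null against 52.2 and 70.3 CPM in Treg libraries (0.73, SE 0.158, adjusted p = 0.0355). All 4 lost their calls without Treg 1 (adjusted p 0.0854 to 0.217), Treg 2 (0.0544 to 0.238) or reporter-null 1 (0.103 to 0.187), and Pprc1, Ncoa7 and Tbl1x also without reporter-null 3 (0.0617 to 0.0825). Over 17 alternatives the adjusted p ran from 0.00278 to 0.217 for Pprc1, 0.00269 to 0.238 for Ncoa7, 2.19e-08 to 0.214 for Ncor1 and 0.000455 to 0.217 for Tbl1x.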

How the data were processed

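The data were RNA-seq counts of polyadenylated RNA from 5 libraries, amplified with the SMART-Seq v4 kit and sequenced in pairs on an Illumina HiSeq, per the labels' protocols. The authors deposited whole-number counts per gene symbol without normalisation. The submitters' processing notes name DESeq. For aligner, build, annotation and strand setting: not given in the sources used here. Groups and replicate numbers came from the sample titles, and 0 columns were left unused. The 4 rows named NA, 0.0034% to 0.00492% of a library's counts, were left out.

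Genes were kept by filterByExpr (minimum count 10, minimum total 15), scaled by TMM and compared with the robust quasi-likelihood test of edgeR 4.0.16 in R 4.3.3. The SE is the log2 fold change divided by the square root of F. DESeq2 1.42.0, limma 3.58.1, other scalings and filters, thinning to the shallowest library and left-out libraries were alternatives. The tests were run on simulated counts with known changes, where DESeq2 made more false calls than edgeR. The simulated libraries were drawn independently with the same scatter for all genes. The simulation therefore does not say how many calls of either tool are false in these data. No pair of replicates agreed within sampling noise (chi-square of 16.9 to 73.8 per degree of freedom). Counts are reads, not molecules, so limits cover counting error only.

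All 47 members are named, and log2 fold changes are given for members called or with a mean of at least 10 CPM, with exceptions chosen after their values were seen (Nr1i3 and Hnf4a) and, in the closing section, every member whose sign changed. Up to 4 called genes are named per list, and other list genes (such as Cyp24a1, Cyp27b1 and Arntl) were added after their values were seen. The members and lists were chosen with earlier results of these data known.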

Additional observations from a re-analysis of the deposited data

How the results depend on the processing

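Over 17 alternatives, 765 of 928 values of single genes kept direction and side of the threshold, 100 lost a call, 29 gained one and 34 changed sign. The number of genes called, 1245, was 2323 by DESeq2, 2158 by limma-voom with quality weights, 489 at an adjusted p under 0.01, 2152 with Treg 1 and reporter-null 2 both left out (chosen after seeing the data), and 341 to 2035 when 1 library was left out. The number of receptor genes called, 3, was 8, 5 and 7 by DESeq2, limma-voom and limma-voom with weights, 5 with no filter, 6 with a CPM of at least 1 in 2 libraries, 8 with both left out, and 2 to 7 with 1 library left out. The 20 list genes called (14.2% of 141 tested, against 8.79% of all tested genes) became 36 by DESeq2 (25.9% against 16.5%). By limma-voom with weights they became 37 (26.2% against 15.2%). At an adjusted p under 0.01 they became 5 (3.55%, against 3.45% of all tested genes). With reporter-null 1, 2 or 3 left out they became 5, 34 and 16 (3.57%, 25.2% and 11.4%). The causes were not tested. Where a single Treg library was left, it was assumed to vary like the reporter-null libraries. Hnf4g, Nr1h3, Nr2f2 and Rorb gave no value under some alternatives because they failed the filter there.

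The titles number the libraries and so do the descriptions, and the labels do not say what either number marks. The title numbers are those of the library names used here. The description numbers were 1 and 4 for reporter-null 1, 2 for reporter-null 2 and Treg 1, and 3 for reporter-null 3 and Treg 2. The libraries with the most epithelial marker RNA, reporter-null 2 and Treg 1, thus share a description number. With the title numbers as a replicate block, 49 genes (0.353% of those tested), 1 receptor gene (Vdr, 2.94%) and 1 list gene (0.714%) were called. Nr1d1 missed the threshold there (0.055). With the description numbers as a replicate block, 1369 genes (9.74% of those tested) and 24 list genes (17.1%) were called. The receptor genes called there were 5 (14.7%), namely Vdr, Nr1d1, Nr1d2, Thra and Nr4a2. Deviations from the group means correlated at -0.51 and -0.60 across genes for title numbers 1 and 2, and at 0.60 and 0.48 for description numbers 2 and 3. With 2 Treg libraries, the deviations of Treg 1 and Treg 2 are equal with opposite signs. The -0.60 of reporter-null 2 with Treg 2 and its 0.60 with Treg 1 are therefore the same value. These correlations cannot serve as separate evidence for either numbering. Each block fit used 4 libraries.

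The sign changed in at least 1 alternative for 12 members, none of them called with all libraries. Their log2 fold changes, reporter-null minus Treg, were -0.52 for Nr1h4, -0.049 for Ppard, -0.04 for Rora, -0.092 for Nr3c2, -1.98 for Hnf4a, -0.30 for Hnf4g and -0.19 for Nr6a1 by limma-voom with quality weights, and -0.018 for Nr1h4 and -0.68 for Hnf4a by limma-voom. With the title numbers as a replicate block they were -0.032 for Rarb and -0.18 for Nr6a1. With Treg 1 and reporter-null 2 both left out they were 0.55 for Rarb, -0.21 for Nr1h4, -0.40 for Ppard, -0.12 for Rora, -1.56 for Hnf4a, 0.11 for Nr2c1 and -0.47 for Nr6a1. With 1 library left out they ran from -0.044 to 0.40 for Rarb, -0.0017 to 0.23 for Rarg, -1.64 to 2.03 for Nr1h4, -0.40 to 0.65 for Ppard, -0.14 to 0.14 for Rora, -0.22 to 0.68 for Nr3c2, -0.021 to 0.32 for Esrra, -3.94 to 3.77 for Hnf4a, -0.047 to 2.69 for Hnf4g, -2.07 to 0.69 for Nr2f2, -0.74 to 0.052 for Nr2c1 and -0.61 to 1.34 for Nr6a1.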
